A study of Mus musculus with 6 samples.

Results

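The subject is a set of 10 mouse genes that are known to be induced by low oxygen in many cell types and that lie outside glycolysis, mitophagy and angiogenesis. They are Adm, Ddit4, Ndrg1, Ankrd37, Bhlhe40, Kdm3a, Mxi1, Higd1a, Car9 and Car12, chosen by gene symbol from a table of 33036 messenger, long noncoding and other RNA features. All 10 were in the table and all 10 passed the filter on low values. RNA was sequenced from whole ovaries of female C57BL/6J mice. The 3 hypobaric hypoxia libraries came from mice held in a chamber at 43.12 kPa (8.1 kPa oxygen; the simulated altitude is 6500 m by title but 5000 m by description). The 3 normal pressure libraries came from mice at the local pressure of Lanzhou, 83.56 kPa (17.8 kPa oxygen; the altitude is 1500 m by title but 1588 m in the series text). Each group is described as 15 mice of 8 weeks (6 to 8 weeks in the descriptions), with cycles synchronised by oral levonorgestrel and ethinylestradiol before 15 days of exposure. Doses of 0.1 and 0.02 mg/kg are given for the hypoxia mice only, and no dose is stated for the normal pressure mice. A difference in hormone dosing, if there was any, cannot be told apart from hypoxia in these comparisons. The descriptions give 15, 16 and 17 days for replicates 1, 2 and 3 of both groups. Beside 12 hours of light, the labels give 12 hours of dark for every hypoxia library and 12, 13 and 14 hours for normal pressure replicates 1, 2 and 3. Which mice gave which library is not stated, so p-values measure the spread between libraries, which may be partly technical.

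Hypoxia-inducible factors (HIFs) are pairs of an alpha subunit, which is destroyed when oxygen is plentiful, and a stable beta subunit. In low oxygen the pair binds a short DNA core, the hypoxia response element, and raises its target genes. The targets described here relax blood vessels (Adm), hydrate carbon dioxide at the cell surface (Car9 and Car12), restrain growth signalling (Ddit4), sit in the mitochondrial inner membrane (Higd1a), respond to cell stress (Ndrg1), or act in the nucleus as repressors and a histone demethylase (Bhlhe40, Mxi1 and Kdm3a). In the ovary, HIF activity has been linked to follicle rupture and to the growth of the corpus luteum, the steroid-making body left after ovulation.

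The core of the hypoxia response element is the letters ACGTG or GCGTG, which read CACGT or CACGC on the opposite strand. It was searched on both strands of the RefSeq promoter windows of build GRCm38.p6 (300 bases, 250 before to 50 after a start site), and overlapping matches were counted. Windows were held for 8 of the 10 genes, all but Ndrg1 and Bhlhe40. A core was found for 7 of these 8 genes, or 87.5%, against 63.9% of the 12236 tested genes with a window and 46.7% of all 27025 genes with one. By window it was in 8 of 12, 66.7%, against 58.1% of 15640 windows of tested genes and 43.8% of all 32851 windows. The sequences below show the stretch before the start site that is free of annotated exons. They are for 3 genes that fell and carry cores in it, and for Car12, which fell and whose only window held none. That window lies inside the RefSeq gene, which begins at chr9:66712296, so the bases before the gene were not searched. The windows of Ankrd37 and Mxi1 likewise lie inside their genes. Capitals mark the cores, and each sequence is on the strand of its gene. The Adm stretch is chr7:110627407-110627656 (plus strand), the Ddit4 stretch chr10:59951835-59952020 (minus), the Ankrd37 stretch chr8:45999868-46000100 (minus) and the Car12 stretch chr9:66713436-66713685 (plus).
Adm: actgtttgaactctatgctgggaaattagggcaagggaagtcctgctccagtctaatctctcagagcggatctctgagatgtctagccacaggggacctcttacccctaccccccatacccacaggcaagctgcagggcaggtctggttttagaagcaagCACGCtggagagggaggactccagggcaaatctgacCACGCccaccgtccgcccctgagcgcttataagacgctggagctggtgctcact
Ddit4: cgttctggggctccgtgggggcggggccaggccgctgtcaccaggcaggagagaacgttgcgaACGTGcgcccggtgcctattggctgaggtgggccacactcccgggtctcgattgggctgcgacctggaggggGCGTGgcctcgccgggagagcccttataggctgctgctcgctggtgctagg
Ankrd37: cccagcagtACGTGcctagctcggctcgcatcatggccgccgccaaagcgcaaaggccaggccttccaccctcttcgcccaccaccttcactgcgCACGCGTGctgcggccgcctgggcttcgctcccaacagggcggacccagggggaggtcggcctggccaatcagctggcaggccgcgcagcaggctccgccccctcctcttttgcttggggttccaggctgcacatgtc
Car12: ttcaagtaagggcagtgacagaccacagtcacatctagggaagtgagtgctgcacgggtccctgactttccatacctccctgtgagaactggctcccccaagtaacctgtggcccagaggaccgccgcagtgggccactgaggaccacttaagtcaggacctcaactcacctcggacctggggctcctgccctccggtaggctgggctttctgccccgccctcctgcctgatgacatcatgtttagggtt

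Adm carried 2 cores, both on the opposite strand and starting 90 and 54 bases before the start site. Ddit4 carried 2 on its own strand, and Ankrd37 carried 3 in the stretch shown, 2 of them overlapping, and 1 more in the last 6 bases before its start. Car9, Kdm3a, Mxi1 and Higd1a carried cores but did not pass the expression test, and 1 core of each is shown with 10 bases on each side. The Higd1a bases also hold an overlapping core that begins 66 bases before the start and is not marked. The sites of Car9, Kdm3a and Higd1a lie within annotated exons and that of Mxi1 does not. The Car9 site (chr4:43506998-43507022, plus) begins 18 bases before the RefSeq start, the Kdm3a site (chr6:71632930-71632954, minus) 27 bases, the Mxi1 site (chr19:53329337-53329361, plus) 66 bases and the first Higd1a site (chr9:121857852-121857876, minus) 70 bases.
Car9: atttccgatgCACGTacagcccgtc
Kdm3a: gggaggctgtGCGTGtcttgtgaga
Mxi1: tcggcacccgACGTGcactggcggg
Higd1a: ggtctagcctGCGTGcgtggcgttc
Cores were thus present in windows of genes that fell and of genes that did not pass. A match is a run of letters, not evidence of binding.

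**Figure D1:**
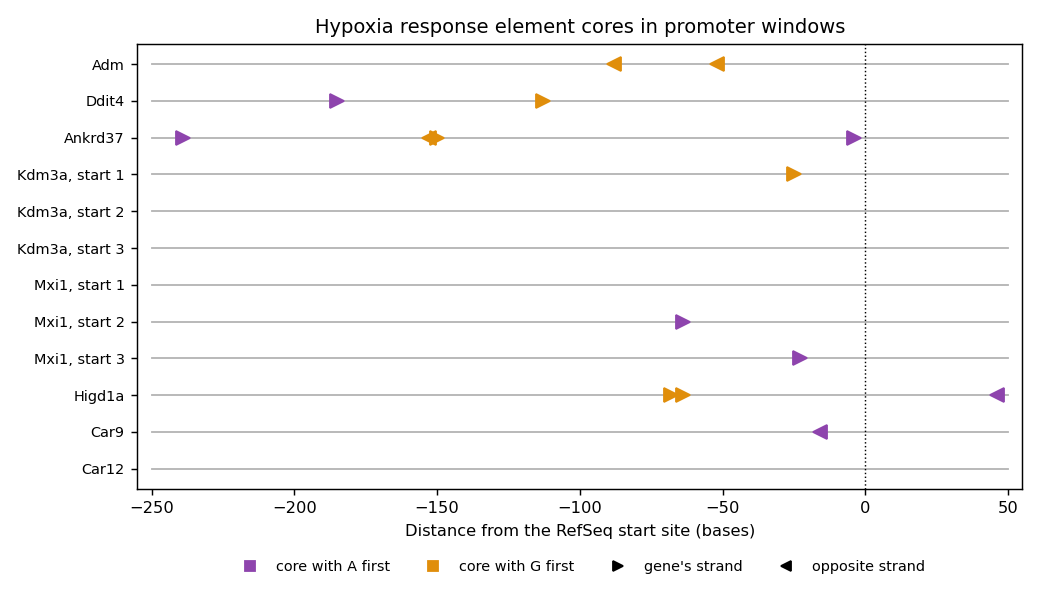
Position of each hypoxia response element core in the promoter windows of 8 genes, in bases from the RefSeq start site, with 1 row per start site. Arrowheads point along the strand of the core, and colour separates cores that begin with A or with G. Ankrd37 has 4 cores and the only Car12 window, which lies inside the gene, has none.

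Of the 10 genes, 5 fell under hypobaric hypoxia and 1 rose. Car12, Bhlhe40, Ankrd37, Adm and Ddit4 were lower and Ndrg1 was higher, while Higd1a, Car9, Kdm3a and Mxi1 did not pass the test. The test was limma's moderated test on log2(TPM + 1) with a trend of variance on mean level, two-sided, with Benjamini-Hochberg adjustment over the 17120 features that reached 1 TPM in at least 3 libraries, called at 0.05. Among all those features 7.2% were called lower and 11.1% higher, which is the background for the 5 and the 1. The same shares are the background for the counts of family, partner and marker genes below. The median log2 fold change of the 10 genes was -0.36, beside 0.08 over all tested features. With no filter on low values, 33036 features were tested and Car12 alone of these 6 passed. The hypoxia and normal pressure libraries did not overlap for 8 of the 10 genes, 5 of them lower and 3 higher, where 11.6% of all tested features did not overlap with hypoxia lower and 27.6% with hypoxia higher. These are values of whole tissue, in which fewer cells of a type and less RNA per cell cannot be told apart.

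TPM is an abundance unit that relates reads to transcript length and gives every library about the same sum, so levels of different genes can be set side by side. Under hypoxia the mean levels ran from Mxi1 (22.5 TPM), Ndrg1 (20.7), Ddit4 (19.3) and Kdm3a (19.1) through Bhlhe40 (11.2) and Higd1a (8.62) to Adm (2.64), Car9 (2.50), Car12 (1.52) and Ankrd37 (0.990). At normal pressure the order was Ddit4 (26.4 TPM), Bhlhe40 (20.2), Mxi1 (18.7), Kdm3a (16.8), Ndrg1 (15.7), Higd1a (10.7), Car12 (4.45), Adm (4.18), Car9 (2.64) and Ankrd37 (1.91). The libraries of Bhlhe40, Mxi1, Kdm3a and Ndrg1 overlapped at normal pressure, so the order of neighbours among these 4 is within their spread. The same held for Car12 beside Adm at normal pressure. Under hypoxia it held for Mxi1 beside Ndrg1, Ndrg1 beside Ddit4, Ddit4 beside Kdm3a, Adm beside Car9 and Car12 beside Ankrd37. Adm, Car9, Car12 and Ankrd37 stayed under 5 TPM in every library. Fold changes on the log2(TPM + 1) scale understate the change of such low genes. With a pseudocount of 0.1 Car12 was at -1.53, Ankrd37 at -0.94 and Adm at -0.64, and with one of 5 they were at -0.54, -0.21 and -0.26, and all 3 passed in both fits.

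**Figure D2:**
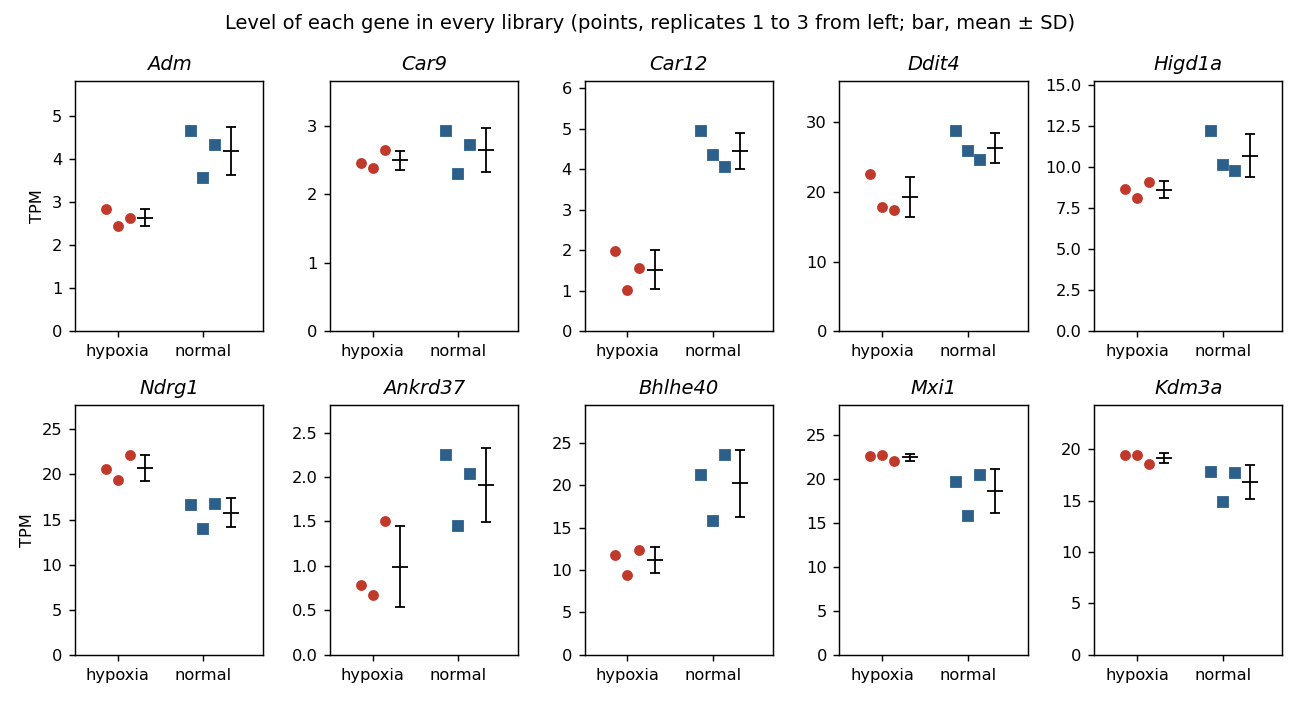
TPM of each of the 10 genes in the 3 hypobaric hypoxia libraries (circles) and the 3 normal pressure libraries (squares), with the mean and SD of each group beside the points and each vertical axis starting at 0. The groups overlap for Ankrd37 and Car9 and are apart for the other genes.

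Adm (chr7:110627657-110629820 in GRCm38.p6, as are all positions) encodes adrenomedullin, a secreted peptide that widens blood vessels and acts on endothelium. It measured 2.85, 2.44 and 2.63 TPM in hypoxia replicates 1 to 3, against 4.65, 3.57 and 4.33 TPM in the normal pressure libraries. Every hypoxia library was below every normal pressure library. The log2 fold change was -0.51 (SE 0.13, limma adjusted p = 0.014), and the ratio of group means was 0.631. Without normal pressure replicate 1 the change was -0.44 and did not pass (adjusted p = 0.0539). In RefSeq the whole of Adm, 2164 bases, lies within the noncoding gene Gm28863, for which no value was used here.

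The receptor of adrenomedullin is the protein Calcrl joined to an accessory protein, Ramp2 or Ramp3, while Calcrl with Ramp1 binds the related peptide CGRP. Of 7 tested genes of this system 2 fell and none rose, beside 7.2% lower and 11.1% higher of all tested features. Ramp3 measured 2.04, 2.66 and 2.64 TPM under hypoxia and 6.57, 5.80 and 4.93 TPM at normal pressure (log2 fold change -0.97, SE 0.14, limma adjusted p = 0.000173). Ramp1 measured 7.76, 3.11 and 5.17 TPM under hypoxia and 14.39, 9.32 and 12.54 TPM at normal pressure (log2 fold change -1.09, SE 0.21, limma adjusted p = 0.00209). Both accessory genes were lower in every hypoxia library than in any normal pressure library. Calcrl itself averaged 7.98 ± 0.581 TPM under hypoxia and 6.36 ± 1.05 TPM at normal pressure (SD, n = 3 each) and did not pass. The ratio of Ramp3 to Calcrl within a library, which no scaling enters, was 0.239, 0.331 and 0.358 under hypoxia and 1.01, 1.11 and 0.673 at normal pressure. Ramp2, the most abundant accessory gene, averaged 31.2 ± 1.05 TPM under hypoxia and 36.0 ± 4.04 TPM at normal pressure and did not pass. The endothelial markers fixed for this tissue (Pecam1, Cdh5, Tek, Kdr, Cldn5 and Emcn) had none lower and 1 of 6 higher, with a summed level of 128 TPM in each hypoxia library and 98.7 to 125 TPM in the normal pressure libraries.

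Car9 (chr4:43507026-43513729) and Car12 (chr9:66712296-66766845) encode carbonic anhydrases anchored in the plasma membrane with their catalytic side outward, where they turn carbon dioxide into bicarbonate and a proton. Car12 measured 1.98, 1.02 and 1.55 TPM under hypoxia, against 4.94, 4.35 and 4.05 TPM at normal pressure. Its highest hypoxia library was under its lowest normal pressure library by more than the range of either group. The log2 fold change of -1.13 (SE 0.15, limma adjusted p = 0.000125) was the steepest among the 10 genes as reported. With a pseudocount of 5 Car12 was at -0.54 and Bhlhe40 at -0.63, so that order depends on the pseudocount. The ratio of its means was 0.341, and it also passed in all 17 alternative fits that tested it, as none of the other 9 did.

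Car9 measured 2.46, 2.38 and 2.65 TPM under hypoxia and 2.92, 2.29 and 2.72 TPM at normal pressure. The groups overlapped, and the log2 fold change was -0.06 with a 95% interval of -0.33 to 0.22 (limma adjusted p = 0.80). That interval reaches neither the fall of Car12 nor a rise of the same size. Within each library the ratio of Car12 to Car9 was 0.805, 0.429 and 0.585 under hypoxia and 1.69, 1.90 and 1.49 at normal pressure, so Car12 was the lower of the pair in all hypoxia libraries and the higher in all normal pressure libraries. In RefSeq, Car9 shares 1722 bases with the neighbouring Arhgef39, which measured 8.54, 9.02 and 6.57 TPM under hypoxia and 4.12, 5.4 and 5.51 TPM at normal pressure. Whether reads were counted by strand is not given, so the division of reads over the shared bases is uncertain.

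Of 8 other tested carbonic anhydrases 2 were called lower and 1 higher, beside 7.2% and 11.1% of all tested features. Car14, another membrane-anchored enzyme, rose to 53.18, 56.63 and 45.75 TPM under hypoxia, against 37.98, 32.28 and 34.59 TPM at normal pressure (log2 fold change 0.55, SE 0.11, limma adjusted p = 0.00345). Car14 was the most abundant carbonic anhydrase of the hypoxia libraries on average, at 51.9 ± 5.56 TPM. Car3, a cytosolic enzyme that is abundant in fat and muscle, fell to 30.57, 56.91 and 23.41 TPM, against 78.33, 70.15 and 57.30 TPM (log2 fold change -0.96, SE 0.22, limma adjusted p = 0.00678). It did not pass with robust variance or without normal pressure replicate 2. All 5 tested fat markers fell beside Car3, with sums of 82.2 to 171 TPM under hypoxia and 219 to 281 TPM at normal pressure, and the part of fat in the Car3 value was not tested. Cytosolic Car2 averaged 4.80 ± 0.904 TPM under hypoxia and 6.91 ± 0.907 TPM at normal pressure and fell by 0.45 on the log2 scale (limma adjusted p = 0.0353), a call lost without hypoxia replicate 2 or normal pressure replicate 1 or 3.

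Ddit4 (chr10:59949675-59951770), also called REDD1, restrains the growth-promoting kinase complex mTORC1. It measured 22.60, 17.82 and 17.42 TPM under hypoxia, against 28.76, 25.86 and 24.56 TPM at normal pressure. The groups did not overlap, although hypoxia replicate 1 came within 2 TPM of the lowest normal pressure library. The log2 fold change was -0.44 (SE 0.12, limma adjusted p = 0.0195). It was -0.39 without hypoxia replicate 2, -0.38 without hypoxia replicate 3 and -0.38 without normal pressure replicate 1, and did not pass in these 3 fits (adjusted p = 0.075, 0.075 and 0.0639). Its paralogue Ddit4l, which also restrains mTORC1, went the other way. Ddit4l measured 32.00, 32.91 and 30.24 TPM under hypoxia and 21.48, 21.47 and 24.09 TPM at normal pressure (log2 fold change 0.49, SE 0.11, limma adjusted p = 0.00478). Of 11 tested genes of this arm, Ddit4l was the only one called higher and Sesn3 the only one called lower, at 39.7 ± 3.43 TPM under hypoxia and 59.8 ± 14.1 TPM at normal pressure. Sesn3, a sestrin that links stress to mTORC1, did not pass without normal pressure replicate 3.

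Higd1a (chr9:121848557-121857796) encodes a small protein of the mitochondrial inner membrane that associates with the respiratory chain. It measured 8.65, 8.09 and 9.11 TPM under hypoxia and 12.18, 10.12 and 9.73 TPM at normal pressure. The groups did not overlap, but the log2 fold change of -0.28 (95% interval -0.53 to -0.02) did not pass over all features (limma adjusted p = 0.122). It passed with median-ratio scaling (-0.36, adjusted p = 0.0288) and quantile normalization (-0.34, adjusted p = 0.0339). Its relatives Higd2a and Higd1b did not pass either. Higd2a, an assembly factor of cytochrome oxidase, averaged 55.1 ± 1.74 TPM under hypoxia and 69.4 ± 7.90 TPM at normal pressure (log2 fold change -0.32, limma adjusted p = 0.0564). Higd1b averaged 2.49 ± 0.440 TPM under hypoxia and 2.00 ± 0.438 TPM at normal pressure. Higd2a passed as lower in 8 alternative fits, which were the 4 other scalings, a minimum of 5 TPM, protein-coding genes only, robust variance and leaving out normal pressure replicate 2.

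Ndrg1 (chr15:66929318-66969641), a cytoplasmic stress-response protein linked to differentiation, was the only one of the 10 genes called higher. It measured 20.55, 19.33 and 22.18 TPM under hypoxia, against 16.61, 13.90 and 16.72 TPM at normal pressure. All hypoxia libraries lay above all normal pressure libraries, and the log2 fold change was 0.38 (SE 0.11, limma adjusted p = 0.0317). Without hypoxia replicate 1, 2 or 3 it was 0.38, 0.42 and 0.33 and did not pass (adjusted p = 0.0914, 0.0512 and 0.138). Its paralogue Ndrg2 rose by a like amount, measuring 80.25, 85.09 and 79.25 TPM under hypoxia and 64.37, 55.77 and 66.48 TPM at normal pressure (log2 fold change 0.39, SE 0.11, limma adjusted p = 0.0211). That call was lost without hypoxia replicate 1 or 2. Ndrg3 averaged 25.7 ± 0.936 TPM under hypoxia and 22.5 ± 1.68 TPM at normal pressure, and Ndrg4 averaged 2.14 ± 0.301 TPM under hypoxia and 2.99 ± 0.310 TPM at normal pressure, and neither passed. Ndrg4 passed as lower with each of the 4 other scalings, with protein-coding genes only and without normal pressure replicate 2, and Ndrg3 as higher with the 2 protein-coding totals.

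Ankrd37 (chr8:45996908-46000414), a small protein built of ankyrin repeats, was the least abundant of the 10. It measured 0.79, 0.67 and 1.51 TPM under hypoxia and 2.25, 1.45 and 2.03 TPM at normal pressure. Hypoxia replicate 3 lay above normal pressure replicate 2, so the groups overlapped. The gene reached the filter through the 3 normal pressure libraries and hypoxia replicate 3. The log2 fold change was -0.56 (SE 0.17, limma adjusted p = 0.0334). The call was lost without hypoxia replicate 1 (-0.50, adjusted p = 0.0514), hypoxia replicate 2 (-0.45, adjusted p = 0.0779) or normal pressure replicate 3 (-0.53, adjusted p = 0.0817). Ankrd37 shares 51 bases with the end of Ufsp2, which measured 15.71, 15.03 and 15.77 TPM under hypoxia and 18.34, 15.54 and 19.48 TPM at normal pressure.

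**Figure D3:**
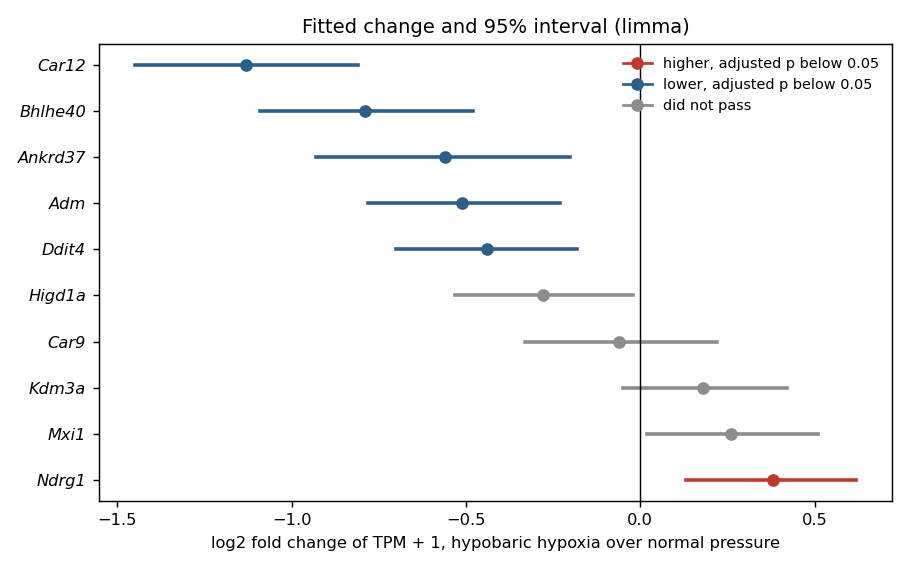
Log2 fold change of each gene on the TPM + 1 scale, hypobaric hypoxia over normal pressure, with limma's 95% interval as a bar. Car12 lies lowest at -1.13 and Ndrg1 highest at 0.38, and the intervals of Car9 and Kdm3a cross 0.

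Bhlhe40 (chr6:108660629-108666925), also called DEC1, is a transcriptional repressor that also damps the circadian clock. It measured 11.82, 9.47 and 12.35 TPM under hypoxia, against 21.20, 15.83 and 23.58 TPM at normal pressure. The highest hypoxia library stayed below the lowest normal pressure library. The log2 fold change was -0.79 (SE 0.14, limma adjusted p = 0.0014), and it passed in every fit except the one with no filter (adjusted p = 0.0515). Its only close paralogue, Bhlhe41, measured 4.19, 4.56 and 5.09 TPM under hypoxia and 4.11, 3.63 and 3.80 TPM at normal pressure and did not pass (log2 fold change 0.21, 95% interval -0.05 to 0.47). It passed as higher when libraries were scaled to the protein-coding total (0.26, limma adjusted p = 0.0381). The difference between the paralogues was not tested. Bhlhe40 shares 306 bases with the noncoding gene 0610040F04Rik, which stayed between 0.69 and 1.2 TPM.

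Mxi1 (chr19:53310128-53373293) encodes a repressor that pairs with MAX and competes with MYC. It measured 22.65, 22.79 and 22.07 TPM under hypoxia and 19.74, 15.83 and 20.52 TPM at normal pressure. The groups did not overlap, but the gap was narrow and the log2 fold change of 0.26 (95% interval 0.02 to 0.51) did not pass over all features (limma adjusted p = 0.13). It passed with each of the 4 other scalings, at 0.17 to 0.33 (adjusted p = 0.00584 to 0.0201). Within a library the ratio of Bhlhe40 to Mxi1 was 0.522, 0.416 and 0.560 under hypoxia and 1.07, 1.00 and 1.15 at normal pressure, so these repressors stood at about equal levels at normal pressure and apart under hypoxia. In the network of MYC, MAX and their partners 3 of 11 tested genes rose and none fell. Over all tested features 11.1% were called higher and 7.2% lower. Mycl measured 50.27, 67.41 and 47.35 TPM under hypoxia and 27.75, 28.34 and 28.68 TPM at normal pressure (log2 fold change 0.92, SE 0.13, limma adjusted p = 0.000146). Mycn, like Mycl a relative of Myc, averaged 17.6 ± 2.41 TPM under hypoxia and 10.3 ± 1.44 TPM at normal pressure (limma adjusted p = 0.00127). Mlxip, a glucose-sensing partner of Mlx, rose by 0.41 (limma adjusted p = 0.0245), which was lost without hypoxia replicate 1 or 2. Myc itself averaged 34.2 ± 2.38 TPM under hypoxia and 34.1 ± 4.95 TPM at normal pressure. All 4 tested oocyte markers rose in the same libraries, with sums over 6 genes of 79.3 to 99.1 TPM under hypoxia and 49.7 to 65.2 TPM at normal pressure, and their part in the Mycl and Mycn values was not tested.

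Kdm3a (chr6:71588970-71632990) encodes an oxygen-dependent enzyme that removes methyl groups from histones. It measured 19.45, 19.40 and 18.57 TPM under hypoxia and 17.81, 14.86 and 17.64 TPM at normal pressure. The groups did not overlap by a margin of under 1 TPM, and the log2 fold change of 0.18 (95% interval -0.05 to 0.42) did not pass (limma adjusted p = 0.268). It passed when libraries were scaled to the total of protein-coding genes (0.25, adjusted p = 0.0115) or to that total without Zfp949 (0.15, adjusted p = 0.0335). The paralogues Kdm3b, at 37.5 ± 0.620 TPM under hypoxia and 31.1 ± 3.42 TPM at normal pressure, and Jmjd1c, at 77.8 ± 1.18 TPM under hypoxia and 66.3 ± 10.3 TPM at normal pressure, did not pass either, and both passed with each of the 4 other scalings.

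**Figure D4:**
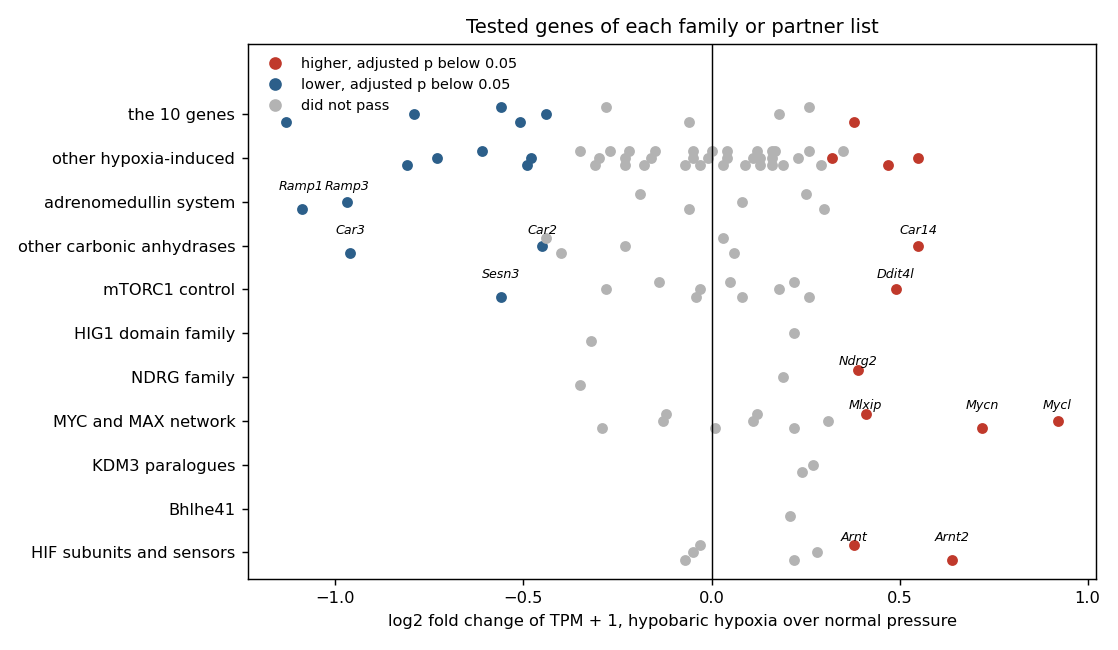
Log2 fold change on the TPM + 1 scale, hypobaric hypoxia over normal pressure, for each tested gene of the 10 and of their family, partner and pathway lists, 1 point a gene and 1 row a list, with points set at 3 heights for legibility. Ramp1 and Ramp3 stand lowest among the partners and Mycl and Mycn highest.

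In each group replicate 2 gave the lowest value for 7 of the 10 genes. The share over all features was not counted, so this is not read as a trait of these genes. The single feature Zfp949 held 10.8%, 10.2% and 13.7% of TPM in hypoxia replicates 1 to 3. At normal pressure it held 16.3%, 15.2% and 14.5%, so it was lower in every hypoxia library. Protein-coding genes other than Zfp949 made up 42.2% to 44.1% of the hypoxia libraries and 43.6% and 45.7% of normal pressure replicates 1 and 3. In normal pressure replicate 2 they made up 37.3%. Without that library Ndrg1 rose by 0.29 (adjusted p = 0.0302), the values of Mxi1 and Kdm3a were 0.15 and 0.10, and the falls of Car12, Bhlhe40 and Adm were -1.14, -0.94 and -0.59. The split of all calls depended on scaling, with 60.7% of calls higher as deposited, 46.0% with median-ratio scaling and 77.7% with scaling to the protein-coding total. For Car9 the fitted value was -0.13 to 0.00 in 17 alternative fits, and the other 9 genes kept their sign in every fit that tested them.

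Among 41 tested genes of a wider list of hypoxia-induced genes outside the same pathways, 5 fell and 3 rose, with a median log2 fold change of 0.00. These shares, 5 of 41 and 3 of 41, stand beside the 7.2% and 11.1% of all tested features given above. The prolyl hydroxylase gene Egln3, which marks HIF alpha subunits for destruction, averaged 1.31 ± 0.251 TPM under hypoxia and 2.26 ± 0.481 TPM at normal pressure (log2 fold change -0.49, limma adjusted p = 0.033). Its call was lost without hypoxia replicate 2 or normal pressure replicate 1 or 3. Stc2, a secreted stanniocalcin, fell by 0.73, the metallothionein Mt1 by 0.81, the membrane-binding annexin Anxa2 by 0.61 and the lysyl oxidase relative Loxl2 by 0.48, the last not without hypoxia replicate 2. The collagen prolyl hydroxylase P4ha1 measured 32.07, 30.78 and 25.45 TPM under hypoxia and 19.25, 18.74 and 21.04 TPM at normal pressure (log2 fold change 0.55, SE 0.12, limma adjusted p = 0.00371). The growth factor Tgfb3 rose by 0.47. Zfp395, a zinc finger gene, rose by 0.32, a call lost without any 1 hypoxia library, without normal pressure replicate 1, with the replicate block and with no variance trend (adjusted p between 0.00188 and 0.217 over all fits).

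Of the factors that act on these genes, Arnt2 and Arnt, both beta subunits, rose by 0.64 and 0.38 (limma adjusted p = 0.00108 and 0.0276), Arnt not without any 1 hypoxia library. Hif1a averaged 39.7 ± 1.83 TPM under hypoxia and 40.7 ± 5.36 TPM at normal pressure, and Epas1, the other main alpha subunit, 83.6 ± 6.88 TPM under hypoxia and 68.5 ± 6.85 TPM at normal pressure, and neither passed. Alpha subunits are controlled mainly as proteins, which RNA levels do not measure.

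**Figure D5:**
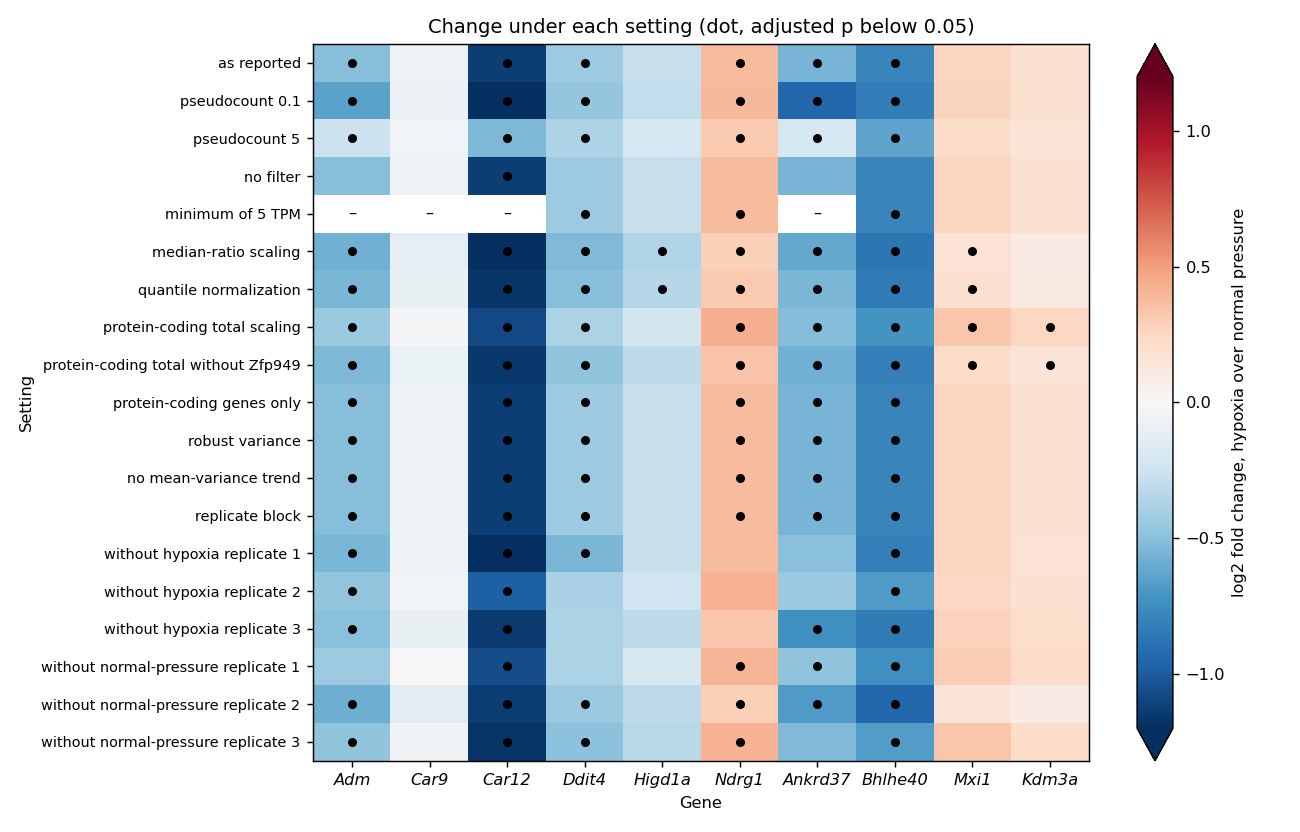
Log2 fold change of the 10 genes, hypobaric hypoxia over normal pressure, as reported and under the 18 other settings, with 1 row a setting. Colour gives the size and direction, a dot marks an adjusted p below 0.05, and a dash marks a gene that a stricter filter removed. Car12 carries a dot in each row where it was tested, and Car9 carries none.

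Markers of ovarian cells were present in all libraries, and none that is in the table was listed at 0. Granulosa markers (Foxl2, Fshr, Amh, Inha, Amhr2 and Esr2) summed to 1660 to 1840 TPM under hypoxia and 1420 to 1510 TPM at normal pressure, and 2 of 6 rose. All 7 luteal markers fell, from Ptgfr at -3.56 to Hsd3b1 at -0.58, with sums of 2030 to 2560 TPM under hypoxia and 4590 to 6370 TPM at normal pressure. Of 7 markers of the surface epithelium 3 fell, the keratins Krt7, Krt8 and Krt19, and of 5 oviduct markers 1 fell, Ovgp1. Upk3b, Msln and Lgals7 averaged 37.1, 15.6 and 25.9 TPM under hypoxia and 35.8, 14.7 and 20.8 TPM at normal pressure. Neither these nor the keratin Krt18, with a log2 fold change of -0.4, passed. Oviduct sums were 219 to 428 TPM under hypoxia and 502 to 754 TPM at normal pressure, and surface epithelium sums were 193 to 249 TPM under hypoxia and 236 to 287 TPM at normal pressure. All 5 tested erythroid markers rose, with sums of 1660 to 2240 TPM under hypoxia and 247 to 447 TPM at normal pressure. Of 4 theca markers 3 rose and none fell, with sums of 215 to 244 TPM under hypoxia and 120 to 193 TPM at normal pressure. None of 5 macrophage markers passed, with sums of 117 to 129 TPM under hypoxia and 120 to 147 TPM at normal pressure. Most of each granulosa sum was Inha, at 1320 TPM under hypoxia and 1150 TPM at normal pressure, which did not pass. Fshr also did not pass, but was lower in every hypoxia library. Most of each oviduct sum was Ovgp1, at 294 and 585 TPM, while Foxj1 averaged 23.8 and 24.4 TPM. The sums of luteal, fat and oviduct markers were lower in every hypoxia library than in any normal pressure library. Sums of erythroid, oocyte, granulosa, theca and endothelial markers were higher in every hypoxia library than in any at normal pressure. The same separation held for Car12, Bhlhe40, Adm and Ddit4, which fell, and for Ndrg1, which rose. It also held for Higd1a, with hypoxia lower, and for Mxi1 and Kdm3a, with hypoxia higher, which did not pass. Over all tested features 11.6% were apart with hypoxia lower and 27.6% with hypoxia higher. The part of cell makeup in the values of the 10 genes was not tested.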

How the data were processed

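Whole mouse ovary was sequenced in 3 hypobaric hypoxia and 3 normal pressure libraries, grouped by sample title. The authors deposited 1 table of TPM values, 1 column per library, with columns that summed to between 998175 and 998954. Per the submitters' processing notes, HISAT2, Bowtie2 and DESeq2 and the build GRCm38.p6 were used. No source used here gives their roles, the read counter, the annotation or the use of strand. Libraries were made from total RNA with a SMARTer mRNA kit, per the labels' protocols. TPM keeps no read depth, so depth is unknown, counting error could not be estimated, and features that share the fixed total shift each other. The fit was limma 3.58.1 in R 4.3.3 on log2(TPM + 1), tested on simulated data, over features with at least 1 TPM in at least 3 libraries, and no covariate was used. A permutation test of 3 against 3 libraries cannot give a two-sided p under 0.1, so none is given. Replicate numbers were not taken as pairs. The 10 genes, their lists and the tests were chosen with earlier results of these data known. Named genes were all 10, the called genes of the family, partner and hypoxia lists (at most 6 a direction in the last), and all tested genes of lists with at most 3. Calcrl, Ramp2, Myc, Hif1a, Epas1, Zfp949 and the overlapping genes fall outside this rule. So do the individual cell type markers named with a value or direction. All of these were chosen after their values were seen. Of the wider hypoxia list of 42 genes, 41 were in the table. Gene positions and promoter windows are from RefSeq, GRCm38.p6, and exons from GENCODE M21. There were 18 alternative settings, of which scaling to the protein-coding total without Zfp949 was chosen after seeing the data.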

Additional observations from a re-analysis of the deposited data

How the results depend on the processing

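The number of features called was 3139 as reported, 1233 with no filter, 5940 after median-ratio scaling, 6171 after quantile normalization, 7172 after scaling to the protein-coding total and 6275 for that total without Zfp949, and 2065 to 3998 without 1 library, the lowest without hypoxia replicate 2 and the highest without normal pressure replicate 2. Of the 10 genes, 5 were lower and 1 higher as reported. The lower count was 6 with median-ratio scaling or quantile normalization, which added Higd1a, 1 with no filter, 2 with a minimum of 5 TPM, which left 6 of the 10 to test, and 3 to 5 without 1 library, with 3 without hypoxia replicate 2 or normal pressure replicate 1. The higher count was 0 with no filter, 2 with median-ratio scaling or quantile normalization and 3 with either protein-coding total. It was 0 to 1 without 1 library, with 0 without any 1 hypoxia library. Over all 17120 features, 2735 were called higher and 3205 lower with median-ratio scaling, and 3399 and 2772 with quantile normalization. Scaled to the protein-coding total, 5573 were higher and 1599 lower, and without Zfp949 3752 and 2523. With no filter 687 of 33036 were higher and 546 lower, and with a minimum of 5 TPM 1700 of 11897 and 982. Without 1 library, 1170 to 2044 features were called higher and 795 to 2143 lower. In the wider list of 41 the lower count, 5 as reported, was 1 with no filter, 13 after median-ratio scaling, 11 after quantile normalization, 8 and 9 for the protein-coding totals with and without Zfp949, and 3 to 9 without 1 library, with 3 without hypoxia replicate 2 and 9 without normal pressure replicate 2. Its higher count, 3 as reported, was 5, 6, 12 and 6 with those scalings and 2 to 4 without 1 library. These counts of 41 stand beside those over all features under the same setting. For the 12 higher that is 5573 of 17120, and for the 13 lower 3205 of 17120. The cause of these shifts was not tested. Calls were 46.4% higher when normal pressure replicate 2 was left out and 72.0% when replicate 3 of that group was, against 60.7% as reported. With no filter, Ramp1, Sesn3, Ndrg2, Mlxip, Car2, Car3, Arnt, Egln3, Loxl2, Zfp395, Stc2 and Anxa2 also did not pass. With the replicate number as a block, 4117 features were called and the same 5 and 1 of the 10 genes passed. Deviations of same-numbered libraries correlated at -0.03, 0.11 and -0.05 across genes, and only replicate 2 correlated best with its own number, so the numbers were not taken as pairs. Depth is unknown, and Ankrd37, Car12, Car9 and Adm lie so low that counting error may be large.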
